A study of Mus musculus with 4 samples.

Results

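The genes described here move or store zinc, iron, copper and magnesium. They were chosen by name only: the zinc exporter family Slc30a, the zinc importer family Slc39a, the metal carriers Slc11a, Slc31a, Slc40a and Slc41a, the magnesium-related genes Cnnm1 to Cnnm4, the metalloreductases Steap1 to Steap4, and 11 further genes, Mt1, Mt2, Tfrc, Fth1, Ftl1, Cp, Heph, Hamp, Trf, Atp7a and Atp7b. The table held 51 of them among 27179 genes, and 47 reached a mean normalized read count of 10 over the 4 libraries and were tested. The data are mRNA sequencing of the kidney medulla at postnatal day 14, from 2 mice labelled Actr3 knockout (Actr3-fl/fl*Cdh16-Cre) and 2 labelled wild-type control, all of a mixed C57BL/6 strain. Actr3 encodes a core subunit of the actin-nucleating Arp2/3 complex, and Cdh16, whose promoter drives the Cre recombinase, encodes the kidney-specific cadherin of tubule epithelium.

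Every cell needs these metals, and every one of them is toxic in excess. Iron enters most cells bound to transferrin through the transferrin receptor, is reduced by STEAP enzymes and carried out of the endosome by Slc11a2. It is stored in ferritin or leaves through ferroportin, encoded by Slc40a1, and ferroxidases then oxidize it. Slc39a proteins bring zinc into the cytosol, Slc30a proteins take it out, and metallothioneins buffer it. In the kidney the thick ascending limb and the distal convoluted tubule recover filtered magnesium, and the proximal tubule recovers filtered transferrin and metallothionein.

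Iron genes carry a switch in their own mRNA. The iron-responsive element is a hairpin with the loop CAGTGN, bound by iron regulatory proteins in iron-poor cells; in the 5′ untranslated region it blocks translation, and in the 3′ untranslated region of the receptor mRNA it slows decay. A pattern of C, 5 stem bases, the loop CAGTGN with a last base other than G, and 5 bases that pair with the stem was searched in the untranslated regions of GENCODE M21 transcripts on the sense strand. It was found in 123 of 21877 protein-coding genes (0.562%) and in 4 of the 51 metal genes. The metal genes were chosen by name and include iron genes known for this switch, so these counts are no test of the set. The search was chosen after the expression values were seen. The matches are shown because those 4 genes stand at the centre of the iron results. The loop is in capitals, and coordinates are GRCm38.
Fth1, 5′ untranslated region, chr19:9982732-9982760, plus strand: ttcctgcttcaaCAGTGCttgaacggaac
Ftl1, 5′ untranslated region, chr7:45459779-45459807, minus strand: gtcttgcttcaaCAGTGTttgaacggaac
Slc40a1, 5′ untranslated region, chr1:45925465-45925493, minus strand: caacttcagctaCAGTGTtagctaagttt
Tfrc, 3′ untranslated region, chr16:32631219-32631247, plus strand: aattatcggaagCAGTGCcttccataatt
Tfrc, 3′ untranslated region, chr16:32631598-32631626, plus strand: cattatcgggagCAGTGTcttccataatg
Tfrc, 3′ untranslated region, chr16:32631663-32631691, plus strand: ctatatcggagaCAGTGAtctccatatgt
Tfrc, 3′ untranslated region, chr16:32631710-32631738, plus strand: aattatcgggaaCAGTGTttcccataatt
The Fth1 and Ftl1 elements share their 5 stem bases, and Tfrc was the 1 gene of the set with several elements. A match is a description of the letters, and binding was not measured.

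The libraries held 36482238 to 40784436 reads and 18972 to 19249 detected genes. Actr3 itself had normalized counts of 12587 and 12480 in the libraries labelled KO, against 8065 and 7275 in those labelled WT (log2 difference 0.71, limma adjusted p = 0.000494), so the targeted gene was higher where it should be deleted. Cdh16 was lower, with 41457 and 37685 counts in KO-labelled and 84350 and 99754 in WT-labelled libraries. A count over the whole gene cannot show the loss of an exon. The groups are therefore called KO-labelled and WT-labelled, and every direction below rests on those labels. Markers of the labelled tissue were present in all libraries: the summed counts of 8 thick ascending limb markers were 256766 and 177993 in the KO-labelled libraries and 456526 and 467458 in the WT-labelled ones. Umod, which did not pass the test, made up 203680 and 138033 of the KO-labelled sums, and the median log2 difference of these markers was -2.66. Markers of other cell types were lower too: 9 of 10 for the proximal tubule (median log2 difference -1.88), 5 of 5 for the thin limb, 5 of 6 for principal cells, 6 of 6 for intercalated cells and 7 of 7 for endothelium. WT replicate 2 held more of most cortical markers than WT replicate 1, with 18429 against 9589 counts of Slc34a1 and 3085 against 877 counts of Slc12a3. Lrp2 and Cubn went the other way, at 11442 against 11888 and 2245 against 2825 counts. The KO-labelled replicates differed as well, with 3902 counts of Slc34a1 in KO replicate 2 against 1171 in KO replicate 1. The part of these cell types in the results below was not tested. In such bulk samples, fewer cells of a type and less RNA per cell cannot be told apart.

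Of the 47 metal genes tested, 20 were higher in the KO-labelled medulla and 12 lower (limma, adjusted p under 0.05), and 15 did not pass the test. These are 42.6% and 25.5% of the genes, beside 26.3% and 24.9% over all 16253 genes tested, where 51.2% were called in either direction. The share that fell was thus close to the background. With a log2 difference of at least 1, 6 rose (background 10.7%) and 4 fell (background 9.45%), where 20.2% of all genes differed by that much in either direction. The median log2 difference was 0.14 for the metal genes and 0.00 for all genes tested. The values of the groups did not overlap for 40 of the 47 genes, which is 85.1% against a background of 78.5%. The count of falls was the less stable one: 5 were left without KO replicate 1 and 7 without WT replicate 2.

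**Figure D1:**
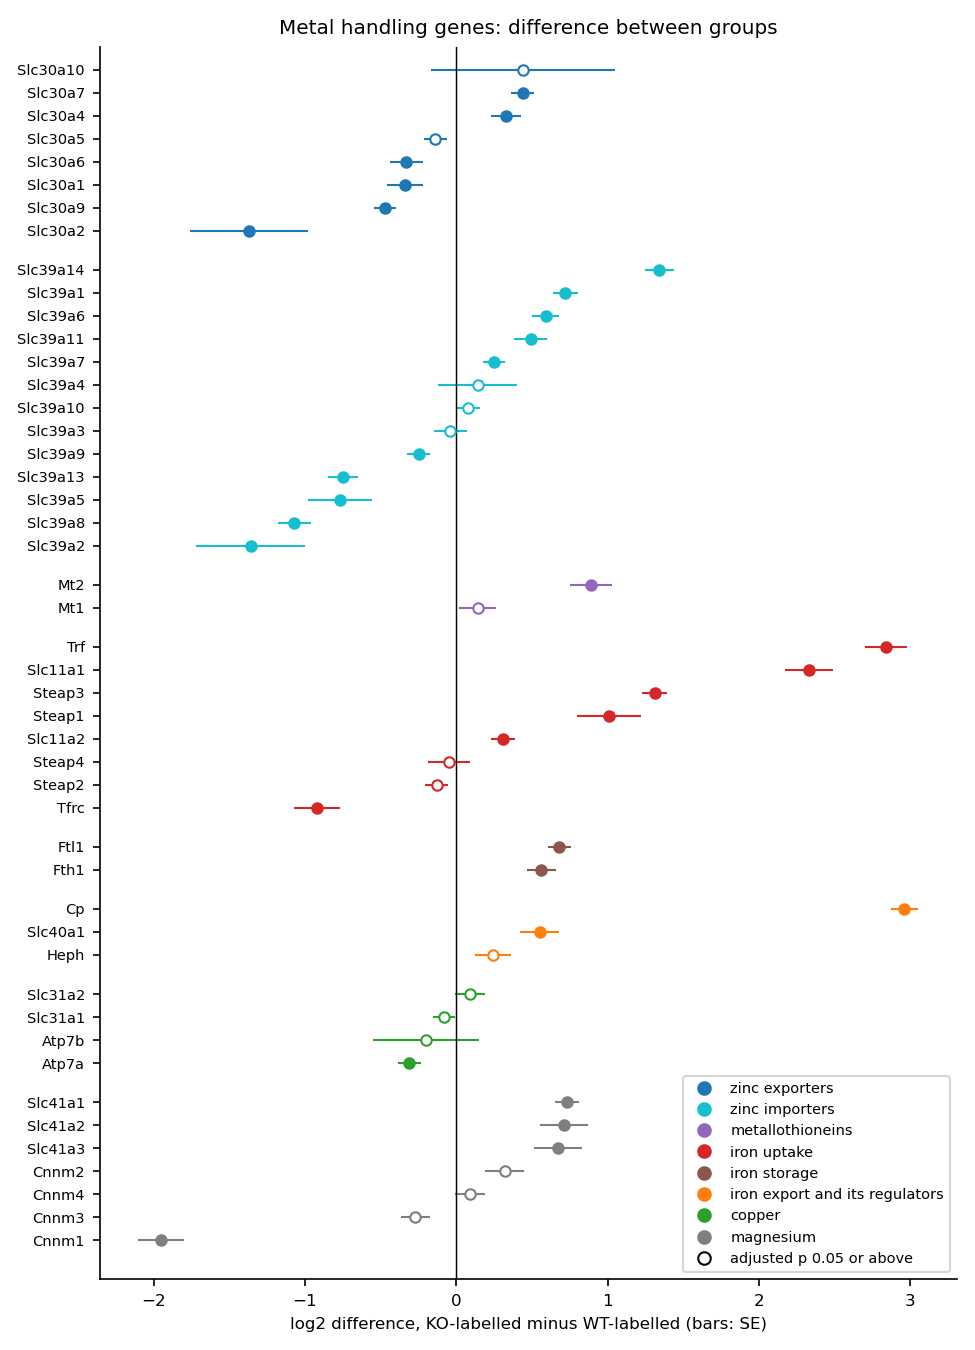
Log2 difference (KO-labelled minus WT-labelled, on log2(normalized count + 1)) of the 47 metal genes tested, in groups by role; bars are SE from limma (n = 2 libraries each) and open points had an adjusted p of 0.05 or above. Cp and Trf lie farthest to the right, at 2.96 and 2.84, and Cnnm1 farthest to the left, at -1.95.

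Differences were large against the spread between replicates. Over the metal genes the median absolute log2 difference was 0.47 between the groups, 0.08 between the KO-labelled replicates and 0.13 between the WT-labelled ones. Over all genes tested these medians were 0.41, 0.13 and 0.15.

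Among the iron genes, 9 of 13 tested rose (69.2%) and 1 fell (7.69%), with a median log2 difference of 0.56. Over all genes tested 26.3% rose and 24.9% fell. The largest rise of all 47 metal genes was that of Cp, ceruloplasmin, the copper-containing ferroxidase that oxidizes iron as it leaves the cell (Entrez 12870, chromosome 3, 19956933 to 20009750, GRCm38). Cp had 20775 and 17996 normalized counts in KO-labelled libraries, against 2506 and 2479 in the WT-labelled ones. Each KO-labelled library thus lay far above both WT-labelled ones. The means were 19385 ± 1965 and 2492 ± 18.9 (SD, n = 2 each), a 7.78-fold difference (log2 difference 2.96, SE 0.09, limma adjusted p = 4.34e-06). Heph, the membrane-bound ferroxidase related to Cp, had 6676 and 8502 counts in KO-labelled and 6441 and 6348 in WT-labelled libraries and did not pass the test (log2 difference 0.24, limma adjusted p = 0.133). It was called without KO replicate 1 (log2 difference 0.41, limma adjusted p = 0.0215). Per base of exon, Cp stood at 3.21 and 2.18 times Heph in the KO-labelled libraries and at 0.401 and 0.403 times Heph in the WT-labelled ones.

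Trf, which encodes transferrin, the iron carrier of plasma, had the next largest rise (Entrez 22041, chromosome 9, 103208876 to 103230286). Its normalized counts were 11666 and 12325 in KO-labelled libraries, against 1449 and 1939 in the WT-labelled libraries. The means of 11996 ± 466 and 1694 ± 347 (SD, n = 2 each) differed 7.08-fold (log2 difference 2.84, SE 0.14, limma adjusted p = 1.56e-05). Its receptor gene Tfrc went the other way (Entrez 22042, chromosome 16, 32608896 to 32632794). Tfrc had 7923 and 5697 normalized counts in KO-labelled libraries, against 12794 and 12696 in WT-labelled libraries. Both KO-labelled values were below both WT-labelled ones, and the KO-labelled pair spread more widely. The means were 6810 ± 1574 and 12745 ± 69.5 (SD, n = 2 each), a log2 difference of -0.92 (limma, SE 0.15 and adjusted p = 0.00204). Tfrc was the 1 iron gene of the set that fell.

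The ferritin subunit genes rose by similar amounts. Fth1, the heavy subunit with ferroxidase activity (chromosome 19, 9980600 to 9985111), had 39561 and 37858 normalized counts in KO-labelled and 24753 and 27795 in WT-labelled libraries. The log2 difference was 0.56 (SE 0.095, limma adjusted p = 0.00275). Ftl1, the light subunit that promotes core formation (chromosome 7, 45457944 to 45459886), had 9037 and 8540 counts in KO-labelled and 5429 and 5529 in WT-labelled libraries (log2 difference 0.68, SE 0.075, limma adjusted p = 0.000393). The KO-labelled libraries were above the WT-labelled ones for both subunits, and the ratio of Fth1 to Ftl1 per base of exon was 4.56 and 4.62 in the KO-labelled libraries and 4.75 and 5.24 in the WT-labelled ones. Ferritin genes have processed pseudogene copies, and how the authors' counting treated reads shared with them is not given in the sources used here.

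Slc40a1, ferroportin, the iron exporter of the cell (chromosome 1, 45908070 to 45926532), had 7691 and 6658 normalized counts in KO-labelled libraries and 5526 and 4325 in WT-labelled libraries. It rose 1.46-fold (log2 difference 0.55, SE 0.13, limma adjusted p = 0.0117), a call lost without KO replicate 1 (adjusted p = 0.0517). Hamp, which encodes hepcidin, the liver hormone that removes ferroportin from the membrane, had 2 reads in KO replicate 2 and 0 in the other libraries, too few to compare. Of the 4 genes that match the element pattern, the 3 with a match in the 5′ region were higher. Tfrc, with matches in the 3′ region, was lower. The search was chosen after these directions were seen, so they are a description and no test of the elements. An element in the 5′ region acts on translation, which read counts do not measure. Iron was not measured, and the part of the elements in these differences was not tested. The pattern does not find every element: Slc11a2, known for an element in the 3′ region of some of its mRNAs, had no match, and it was higher. Ireb2 and Aco1, which encode the iron regulatory proteins, did not pass the test, at log2 differences of 0.00 and -0.11 (limma adjusted p = 0.981 and 0.244).

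**Figure D2:**
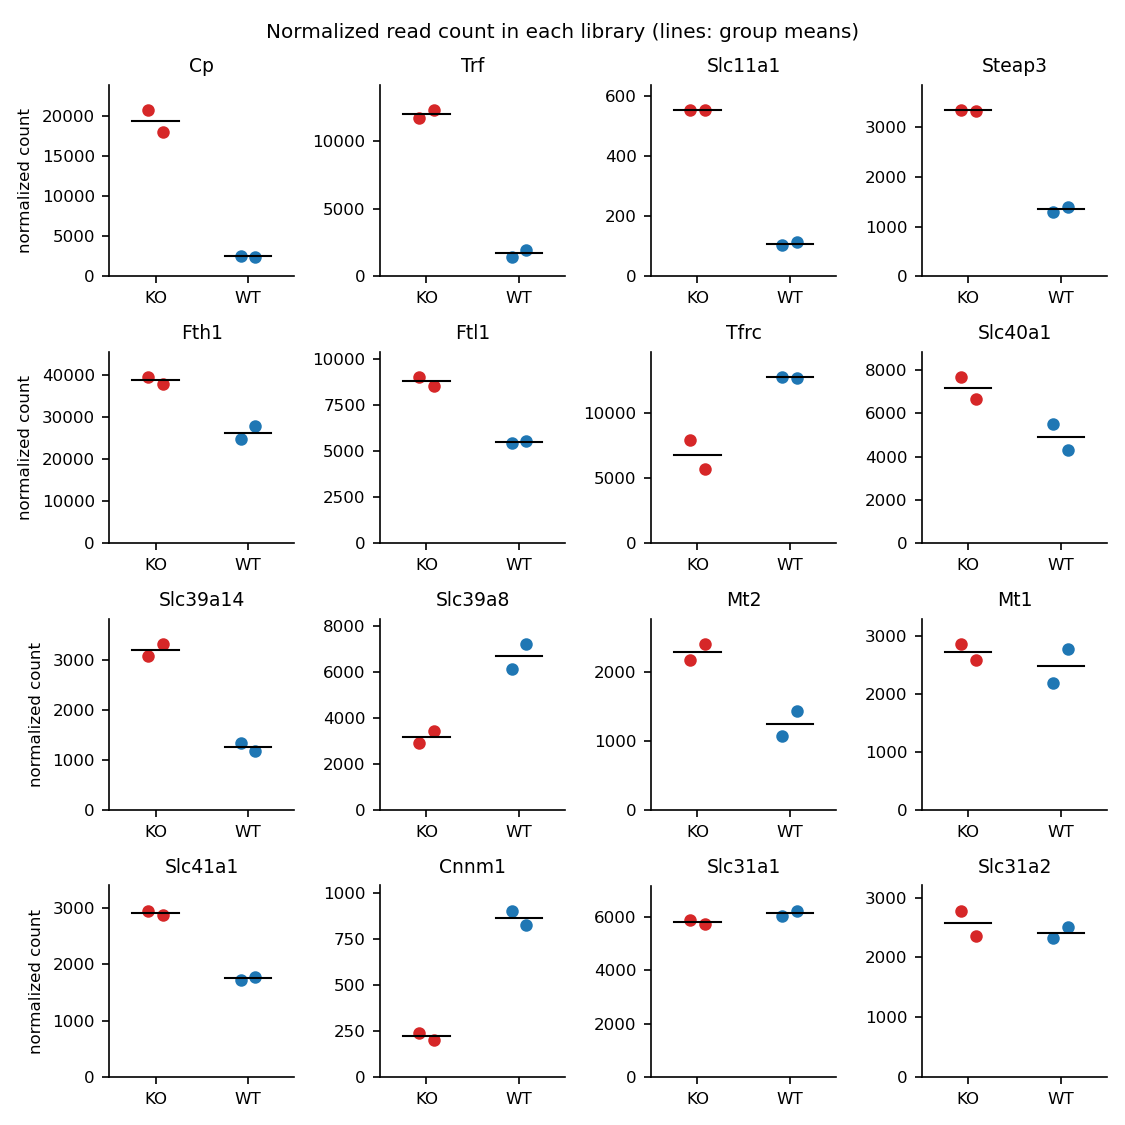
Normalized read count (vertical axes, each from 0) of 16 metal genes in each library, KO-labelled in red and WT-labelled in blue, with lines at the group means (n = 2 each). For Cp, Trf, Slc11a1 and Steap3 both KO-labelled points lie far above the WT-labelled ones, for Tfrc, Slc39a8 and Cnnm1 below them, and for Mt1 and Slc31a2 the groups overlap.

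Of the endosomal reductases and carriers, Steap3, the main ferrireductase of red cell precursors, had 3349 and 3329 normalized counts in KO-labelled and 1298 and 1397 in WT-labelled libraries. It rose 2.48-fold (log2 difference 1.31, SE 0.084, limma adjusted p = 4.44e-05), with replicates closer together than the groups by a wide margin. Steap1, a family member that lacks the NADPH-binding part of the others, had 588 and 485 counts in KO-labelled and 222 and 317 in WT-labelled libraries (log2 difference 1.01, SE 0.21, limma adjusted p = 0.00632). Steap2 and Steap4, which reduce iron and copper, did not pass the test, at log2 differences of -0.13 and -0.05, so the family was split into members that rose and members with little measured difference. Per base of exon, Steap3 stood at 1.79 and 1.81 times Steap2 in the KO-labelled libraries and at 0.633 and 0.7 times Steap2 in the WT-labelled ones. Slc11a2, the divalent metal transporter DMT1, rose to 2960 and 2972 counts in KO-labelled libraries, against 2465 and 2313 in WT-labelled libraries (log2 difference 0.31, limma adjusted p = 0.0155). That call was lost without KO replicate 1 (adjusted p = 0.0728), KO replicate 2 (0.073) or WT replicate 2 (0.0637).

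Slc11a1, the phagosomal metal transporter NRAMP1 of macrophages, had 552 and 555 normalized counts in KO-labelled and 104 and 114 in WT-labelled libraries. Its means of 554 ± 1.79 and 109 ± 7 (SD, n = 2 each) differed 5.06-fold (log2 difference 2.33, SE 0.16, limma adjusted p = 5.92e-05). All 12 macrophage markers rose in the same libraries, with a median log2 difference of 2.32. Their summed counts were 72348 and 66688 in KO-labelled libraries and 19199 and 15716 in WT-labelled libraries, and none of them was at 0. Macrophages also express Slc40a1, Hmox1 and ferritin, and the part of these cells in the iron results was not tested. Of 5 erythroid genes tested, of 7 in the list, 4 fell and 1 rose, and their summed counts were 978 and 740 in KO-labelled libraries and 7529 and 7242 in WT-labelled libraries. Slc4a1, which intercalated cells share, made up 4485 and 4521 of the WT-labelled sums, and Hba-a1 had at most 1.07 counts in any library. Hba-a2, Hbb-bs and Alas2 fell as well, by log2 differences of -1.83, -2.06 and -2.36, and Epb42 was the 1 that rose, by 2.38. Red cell precursors carry much transferrin receptor, and their part in the fall of Tfrc was not tested. The liver is the main source of plasma transferrin and ceruloplasmin. Of 4 hepatocyte markers, Alb had at most 12.9 counts in any library. Of the 3 tested Ttr rose, with 1125 and 1623 counts in KO-labelled libraries and 1033 and 754 in WT-labelled libraries. Apoa2 and Cyp2e1 did not pass the test, at log2 differences of -0.02 and -0.38. The part of hepatocytes in the rise of Trf and Cp was not tested.

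Other genes of iron regulation and heme, 33 tested, went both ways, with 9 higher and 8 lower and a median log2 difference of -0.11. These shares, 27.3% and 24.2%, were close to the 26.3% and 24.9% of all genes tested. The called genes with the smallest adjusted p all rose. Lcn2, a siderophore-binding protein that takes up bacterial iron carriers, had 37893 and 24247 normalized counts in KO-labelled libraries and 481 and 599 in WT-labelled libraries. Hmox1, the inducible heme oxygenase, had 1110 and 1217 counts in KO-labelled and 488 and 502 in WT-labelled libraries (log2 difference 1.23, limma adjusted p = 0.000177). Blvrb, a biliverdin reductase of the next step of heme breakdown, rose 2.15-fold, and Tmprss6, a protease that restrains hepcidin signalling in the liver, rose to 112 and 124 counts in KO-labelled libraries, against 16.7 and 9.94 in WT-labelled libraries. Ncoa4, the receptor that delivers ferritin to the lysosome, fell, with 769 and 913 counts in KO-labelled and 1469 and 1509 in WT-labelled libraries (log2 difference -0.83, limma adjusted p = 0.00111). Slc22a17, a receptor for the Lcn2 protein, also fell (log2 difference -0.63, limma adjusted p = 0.00851). The heme transporter genes split, Flvcr1 rising and Flvcr2 falling by log2 differences of 0.90 and -1.15. The count of falls in this list was 5 without WT replicate 2.

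The zinc transporters moved in both directions within each family. Of 13 zinc importers tested 5 rose (38.5%) and 5 fell (38.5%), with a median log2 difference of 0.08. Of 8 exporters tested 2 rose (25%) and 4 fell (50%), with a median of -0.23. Over all genes tested 26.3% rose and 24.9% fell, so the share of exporters that rose was close to the background. Without KO replicate 1, 3 zinc genes were called lower in all, and without WT replicate 2, 4 were, against 9 with all libraries.

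The closely related importers Slc39a14 and Slc39a8, which carry manganese and iron as well as zinc, went in opposite directions. Slc39a14, ZIP14, a carrier of iron not bound to transferrin (Entrez 213053, chromosome 14, 70303467 to 70351452), had 3085 and 3331 normalized counts in KO-labelled libraries and 1340 and 1195 in WT-labelled libraries. The means of 3208 ± 174 and 1267 ± 102 (SD, n = 2 each) differed 2.53-fold (log2 difference 1.34, SE 0.096, limma adjusted p = 6.74e-05). Slc39a8, ZIP8 (Entrez 67547, chromosome 3, 135816882 to 135888572), had 2940 and 3418 counts in KO-labelled libraries and 6120 and 7226 in WT-labelled libraries. Its means of 3179 ± 338 and 6673 ± 782 (SD, n = 2 each) gave a log2 difference of -1.07 (limma, SE 0.11 and adjusted p = 0.000335). Per base of exon, Slc39a14 stood at 0.79 and 0.734 times Slc39a8 in the KO-labelled libraries and at 0.165 and 0.124 times in the WT-labelled ones. In each library Slc39a8 was still the higher of the pair.

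The other importers that rose were Slc39a1, Slc39a6, Slc39a11 and Slc39a7. Slc39a1, a plasma membrane importer of many tissues, had 5010 and 4590 normalized counts in KO-labelled libraries and 2857 and 2973 in WT-labelled libraries (log2 difference 0.72, limma adjusted p = 0.000472). Slc39a6 and Slc39a11 rose by log2 differences of 0.59 and 0.49. Slc39a7, which releases zinc from the endoplasmic reticulum, rose by a log2 difference of 0.25 (limma adjusted p = 0.0254), a call lost when any 1 library was left out (adjusted p = 0.0536 to 0.144).

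Besides Slc39a8, the importers that fell were Slc39a13, Slc39a2, Slc39a5 and Slc39a9. Slc39a13, an intracellular transporter needed for connective tissue, had 2135 and 2133 normalized counts in KO-labelled and 3315 and 3892 in WT-labelled libraries (log2 difference -0.75, limma adjusted p = 0.000846). Slc39a2 was scarce, at 13.9 and 17.9 counts in KO-labelled libraries and 37.4 and 47.7 in WT-labelled libraries. Its groups did not overlap, and it fell by a log2 difference of -1.36 (limma, SE 0.36 and adjusted p = 0.0182), a call lost without KO replicate 1 (adjusted p = 0.0625) and without WT replicate 2 (0.0915). Slc39a5, a basolateral importer of epithelia, had a log2 difference of -0.77 (limma adjusted p = 0.0198). It was -0.46 and not called without KO replicate 1 (adjusted p = 0.0644), and the call was also lost without WT replicate 1 (0.0513) or WT replicate 2 (0.108). Slc39a9 fell by a log2 difference of -0.25 (limma adjusted p = 0.0339), a call lost without KO replicate 1 (adjusted p = 0.178), KO replicate 2 (0.0871) or WT replicate 2 (0.125). Slc39a3, Slc39a4 and Slc39a10, with log2 differences of -0.04, 0.14 and 0.08, did not pass the test. Slc39a12 was below the level tested, with 21 reads in the KO-labelled libraries together and 2 in the WT-labelled ones, 10.5 times as much after normalization, with a 95% interval of 2.57 to 92.6 from the exact binomial method that covers counting error alone.

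Among the exporters, Slc30a7 and Slc30a4 rose and 4 others fell. Slc30a7, of the Golgi, had 3680 and 3769 normalized counts in KO-labelled libraries and 2792 and 2696 in WT-labelled libraries (log2 difference 0.44, limma adjusted p = 0.00296). Slc30a4, of endosomes, rose by a log2 difference of 0.33 (limma adjusted p = 0.0284), a call lost without KO replicate 1 (adjusted p = 0.116), KO replicate 2 (0.0661) or WT replicate 2 (log2 difference 0.21, adjusted p = 0.115). Slc30a9, linked to zinc export from mitochondria, fell to 4105 and 4229 counts in KO-labelled libraries, against 5730 and 5845 in WT-labelled libraries (log2 difference -0.47, limma adjusted p = 0.00179). Slc30a2, which loads zinc into secretory vesicles, had 67.6 and 113 counts in KO-labelled libraries and 159 and 326 in WT-labelled libraries. The groups were separate but each spread widely, and the log2 difference of -1.37 (limma, SE 0.39 and adjusted p = 0.0236) was not called without KO replicate 1 (adjusted p = 0.0809) and was -0.85 without WT replicate 2 (adjusted p = 0.132).

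Slc30a1, the zinc exporter of the plasma membrane, fell by a log2 difference of -0.34 (limma adjusted p = 0.0435). That call was lost without KO replicate 1 (adjusted p = 0.205) or WT replicate 1 (log2 difference -0.20, adjusted p = 0.202). Slc30a6 fell by a log2 difference of -0.33 (limma adjusted p = 0.0383), a call lost when any 1 library was left out (adjusted p = 0.0585 to 0.161). Its partner in the Golgi, Slc30a5, had a log2 difference of -0.14 and did not pass the test (limma adjusted p = 0.16). Slc30a10, which in human exports manganese, had a mean near the level tested, and its log2 difference of 0.44 did not pass (SE 0.61, limma adjusted p = 0.57). Slc30a3, the exporter of synaptic vesicles, had 1.97 to 4.71 counts per library and was not tested. Slc30a8, the exporter of insulin granules, had no read in any library.

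**Figure D3:**
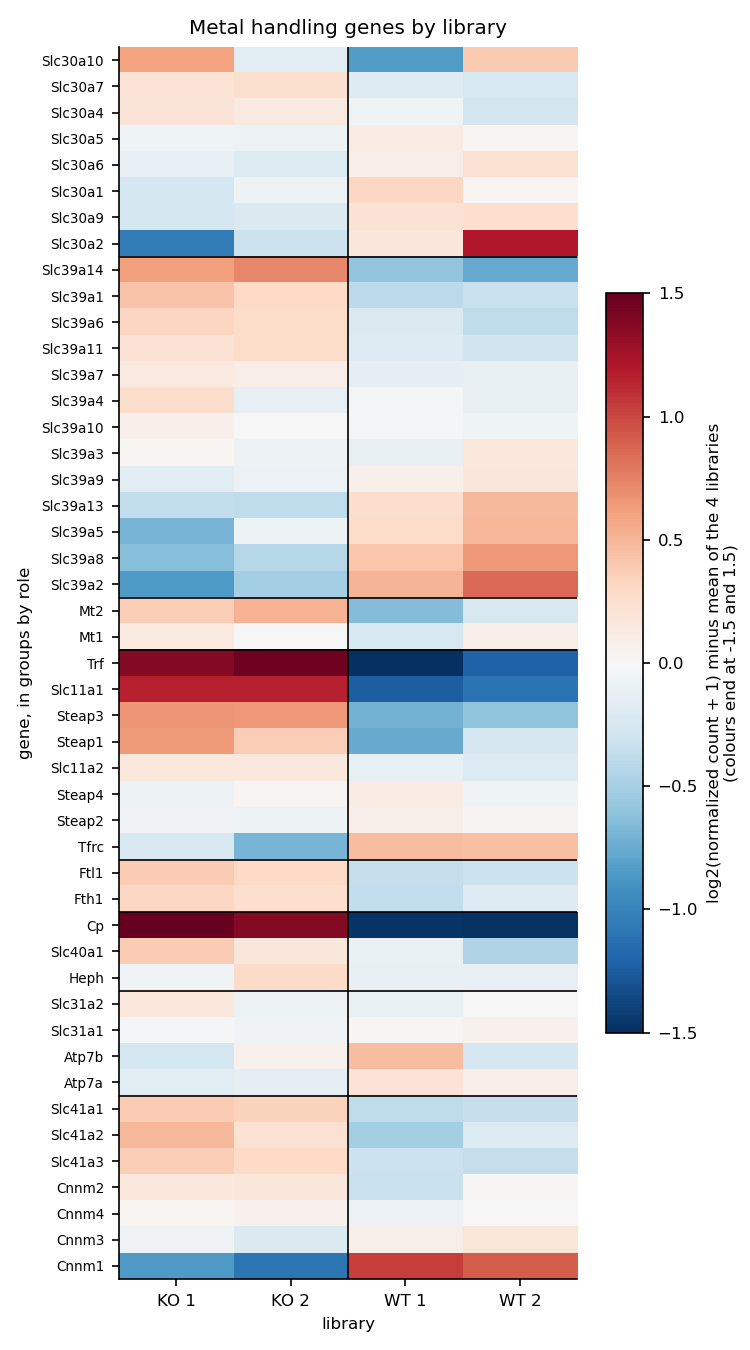
Deviation of log2(normalized count + 1) from the mean of the 4 libraries for the 47 metal genes tested (rows, in groups by role) in each library (columns). Red is above and blue below the mean, and colours end at -1.5 and 1.5. Replicates of a group share their colour for most genes; Slc30a2 stands out in WT replicate 2 and Slc30a10 varies within both groups.

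Of the metallothioneins, small cysteine-rich proteins that bind zinc and copper, Mt2 rose and Mt1 did not pass the test. Mt2 had 2176 and 2411 normalized counts in KO-labelled libraries and 1072 and 1431 in WT-labelled libraries. Its means of 2294 ± 166 and 1251 ± 254 (SD, n = 2 each) gave a log2 difference of 0.89 (limma, SE 0.14 and adjusted p = 0.00234). Mt1 had 2872 and 2584 counts in KO-labelled libraries and 2196 and 2771 in WT-labelled libraries, where 1 WT-labelled value lies between the KO-labelled ones (log2 difference 0.14, SE 0.12, limma adjusted p = 0.37). Per base of exon, Mt2 stood at 0.814 and 1 times Mt1 in the KO-labelled libraries and at 0.524 and 0.555 times in the WT-labelled ones. Mt3, first known from brain, fell, with 29 and 22.6 counts in KO-labelled libraries and 123 and 95.4 in WT-labelled libraries (log2 difference -2.04, limma adjusted p = 0.00145). Mt4 had no read in any library.

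Metallothionein genes are the textbook targets of the zinc sensor MTF1, which binds the metal response element. The core of this element, spelled TGCACNC or TGCGCNC, was searched on both strands in RefSeq promoter windows on GRCm38.p6, from 250 bases before to 50 after the start. Overlapping matches on opposite strands were counted separately. The windows of Mt2, Mt1 and Slc30a1, another MTF1 target, are shown with matches in capitals because these genes are known targets of the same sensor. Zinc and MTF1 binding were not measured.
Mt2, chr8:94172368-94172667, plus strand: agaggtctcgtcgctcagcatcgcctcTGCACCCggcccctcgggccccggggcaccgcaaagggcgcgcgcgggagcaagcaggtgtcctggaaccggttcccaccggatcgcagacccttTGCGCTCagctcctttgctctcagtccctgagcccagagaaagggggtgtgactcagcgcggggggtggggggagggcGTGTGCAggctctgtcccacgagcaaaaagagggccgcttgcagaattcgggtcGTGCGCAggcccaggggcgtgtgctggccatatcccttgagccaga
Mt1, chr8:94178839-94179138, plus strand: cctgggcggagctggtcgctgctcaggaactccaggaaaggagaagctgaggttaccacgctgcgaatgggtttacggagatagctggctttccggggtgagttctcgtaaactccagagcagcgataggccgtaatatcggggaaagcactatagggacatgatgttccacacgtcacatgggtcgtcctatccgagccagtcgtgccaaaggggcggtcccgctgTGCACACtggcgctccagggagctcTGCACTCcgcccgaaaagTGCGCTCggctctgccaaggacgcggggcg
Slc30a1, chr1:191906531-191906830, plus strand: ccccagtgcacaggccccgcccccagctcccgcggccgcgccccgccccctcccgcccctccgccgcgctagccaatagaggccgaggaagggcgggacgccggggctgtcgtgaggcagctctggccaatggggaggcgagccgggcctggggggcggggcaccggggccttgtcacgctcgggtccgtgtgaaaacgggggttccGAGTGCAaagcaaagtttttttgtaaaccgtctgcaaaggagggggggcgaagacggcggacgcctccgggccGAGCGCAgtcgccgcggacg
The Mt2 window holds 4 matches, the Mt1 window 3 and the Slc30a1 window 2. For Mt1 and Slc30a1 the start used lies downstream of the first base listed for the gene, 94178883 and 191906697. Match counts depend on the start used. At least 4 matches were found in 0.517% of all 32851 windows, at least 2 in 7.11% and at least 1 in 25.7%. The antioxidant response element core TGACNNNGC, also searched on both strands, was in 12.4% of all windows, in those of Mt2 and Slc30a1 with 1 match each, and not in that of Mt1.

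Across the metal genes, 40 of those tested had a window, and 24 of these (60%) held at least 1 metal response element core, against 39% of the 12397 tested genes with a window. At least 2 cores were in 25% and 12.8%. The windows of the metal genes were also slightly richer in G and C, with a median of 63.2% against 60.3%. The core was in 15 of 27 called genes and in 9 of 13 that did not pass. The other called genes with at least 2 cores in a window were Slc30a4, Atp7a, Cnnm1, Slc30a2 and Tfrc, of which 1 rose and 4 fell. Mtf1 itself had a log2 difference of 0.16 and did not pass the test (limma adjusted p = 0.162). Of the 7 other zinc genes tested, 3 fell and none rose by limma, edgeR or DESeq2. The share that fell was 42.9% by limma, beside 24.9% over all genes tested. Besides Mt3, Car2 and Car4, zinc enzymes that hydrate carbon dioxide, fell by log2 differences of -1.96 and -2.67. S100a9, which encodes a zinc-binding neutrophil protein, was scarce, with 18.2 and 36.7 counts in KO-labelled and 13.8 and 3.98 in WT-labelled libraries. It did not pass the test (log2 difference 1.65, SE 0.64, limma adjusted p = 0.0686). Without KO replicate 1, 2 genes of this list were called higher, and without WT replicate 1, 1 was.

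Copper transport itself differed little. Of 4 genes, Atp7a, the copper pump of the secretory pathway, fell, with 3276 and 3340 normalized counts in KO-labelled libraries and 4232 and 3958 in WT-labelled libraries (log2 difference -0.31, limma adjusted p = 0.015). That call was lost without KO replicate 1 (adjusted p = 0.0824), KO replicate 2 (0.0581) or WT replicate 1 (0.0665). Slc31a1, the high-affinity copper importer, had 5866 and 5735 counts in KO-labelled and 6040 and 6235 in WT-labelled libraries (log2 difference -0.08, SE 0.073). Slc31a2, its relative in endosomes, and the liver-type pump Atp7b had log2 differences of 0.09 and -0.20, and none of these 3 passed the test.

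Of 16 copper chaperones and copper-dependent enzymes tested 5 rose and 2 fell, with a median log2 difference of -0.07. The share called, 43.8%, and the median absolute log2 difference, 0.37, were below the 51.2% and 0.41 of all genes tested. Aoc1, the copper amine oxidase that breaks down histamine and putrescine, had 8933 and 8879 normalized counts in KO-labelled libraries and 1071 and 1128 in WT-labelled libraries (log2 difference 3.02, limma adjusted p = 2.87e-06). Loxl1 and Loxl3, lysyl oxidases that cross-link matrix, rose 5.89-fold and 1.79-fold. Cox11, which inserts copper into cytochrome c oxidase, had 864 and 816 counts in KO-labelled libraries and 1576 and 1804 in WT-labelled libraries (limma adjusted p = 0.000358). Atox1, the chaperone that hands copper to Atp7a, rose by a log2 difference of 0.43 (limma adjusted p = 0.0196). Without WT replicate 1 the list gave 3 rises and 1 fall. The falls numbered 4 without KO replicate 2, and 1 without KO replicate 1 or WT replicate 2. Of 7 fibroblast and pericyte markers 4 rose in the same libraries: Col1a1, Col1a2, Col3a1 and Acta2. Pdgfra, Pdgfrb and Dcn did not pass the test, at log2 differences of -0.10, 0.14 and 0.33. The summed counts were 469475 and 542723 in KO-labelled libraries and 185659 and 195614 in WT-labelled libraries. Col3a1 alone made up 261051 and 308699 of the KO-labelled sums and 93785 and 92680 of the WT-labelled ones. The part of these cells in the rise of the lysyl oxidases was not tested.

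Of the 7 magnesium genes tested 3 rose (42.9%) and 1 fell (14.3%), beside 26.3% and 24.9% over all genes tested. All 3 Slc41a genes rose, by log2 differences of 0.67 to 0.73, and 1 of the magnesium genes was still called higher without KO replicate 1. Slc41a1, a magnesium transporter of the plasma membrane, had 2950 and 2867 normalized counts in KO-labelled libraries and 1730 and 1777 in WT-labelled libraries (log2 difference 0.73, SE 0.08, limma adjusted p = 0.000387). Slc41a2 had 708 and 592 counts in KO-labelled libraries and 356 and 438 in WT-labelled libraries. Its call was lost without KO replicate 1 (adjusted p = 0.056) or WT replicate 1 (0.0531). Slc41a3, placed in mitochondria, had 309 and 295 counts in KO-labelled libraries and 191 and 187 in WT-labelled libraries, and was not called without KO replicate 1 (adjusted p = 0.0635).

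Of the 4 Cnnm genes, Cnnm1 fell and the others did not pass the test. Cnnm1 (Entrez 83674, chromosome 19, 43439069 to 43497210) had 243 and 205 normalized counts in KO-labelled libraries and 907 and 827 in WT-labelled libraries. The means of 224 ± 26.9 and 867 ± 56.7 (SD, n = 2 each) gave a log2 difference of -1.95 (limma, SE 0.15 and adjusted p = 8.39e-05), the deepest fall among the 47 genes. Cnnm2, the basolateral magnesium gene of the distal convoluted tubule that is mutated in human hypomagnesaemia, had 1419 and 1430 counts in KO-labelled libraries and 1014 and 1289 in WT-labelled libraries (log2 difference 0.32, limma adjusted p = 0.0776). Without WT replicate 2 it was called (log2 difference 0.49, adjusted p = 0.019). Cnnm3 and Cnnm4 had log2 differences of -0.27 and 0.09 (limma adjusted p = 0.053 and 0.493).

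Of 22 other magnesium genes tested 10 fell (45.5%) and 5 rose (22.7%), beside 24.9% and 26.3% over all genes tested, with a median log2 difference of -0.31. The median absolute log2 difference was 0.73 in this list and 0.67 in the 7 magnesium genes above. Egf, whose product stimulates magnesium uptake through Trpm6, had 708 and 531 normalized counts in KO-labelled libraries and 48499 and 57616 in WT-labelled libraries. Kcnj10, a basolateral potassium channel, Cldn10, a sodium-permeable tight junction protein, and Cldn19, the partner of Cldn16 in the magnesium-permeable junction, fell by log2 differences of -3.07, -2.29 and -1.29. Cldn16 itself was higher, with 1106 and 1180 counts in KO-labelled and 923 and 952 in WT-labelled libraries (log2 difference 0.28, limma adjusted p = 0.0476). Fxyd2, a regulator of the sodium pump that is mutated in human magnesium wasting, fell by a log2 difference of -2.11. Trpm6, the apical magnesium channel, rose to 903 and 838 counts in KO-labelled libraries, against 92.6 and 248 in WT-labelled libraries, whereas the widely expressed Trpm7 fell (log2 differences 2.51 and -0.49). The rises in this list numbered 3 without KO replicate 1, KO replicate 2 or WT replicate 2. Of 8 thick ascending limb markers 6 fell, and of 6 distal convoluted tubule markers 3 rose and 2 fell; these lists share Cldn10, Cldn16 and Trpm6 with the magnesium genes. The 2 that fell were Slc12a3 and Calb1, by log2 differences of -2.75 and -2.62. Within the WT-labelled pair, Trpm6 was higher in WT replicate 2, the library with more Slc12a3. Within the KO-labelled pair Trpm6 differed little, at 903 and 838 counts, while Slc12a3 had 177 counts in KO replicate 1 and 334 in KO replicate 2. The part of distal convoluted tubule cells in the rise of Trpm6 was not tested.

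**Figure D4:**
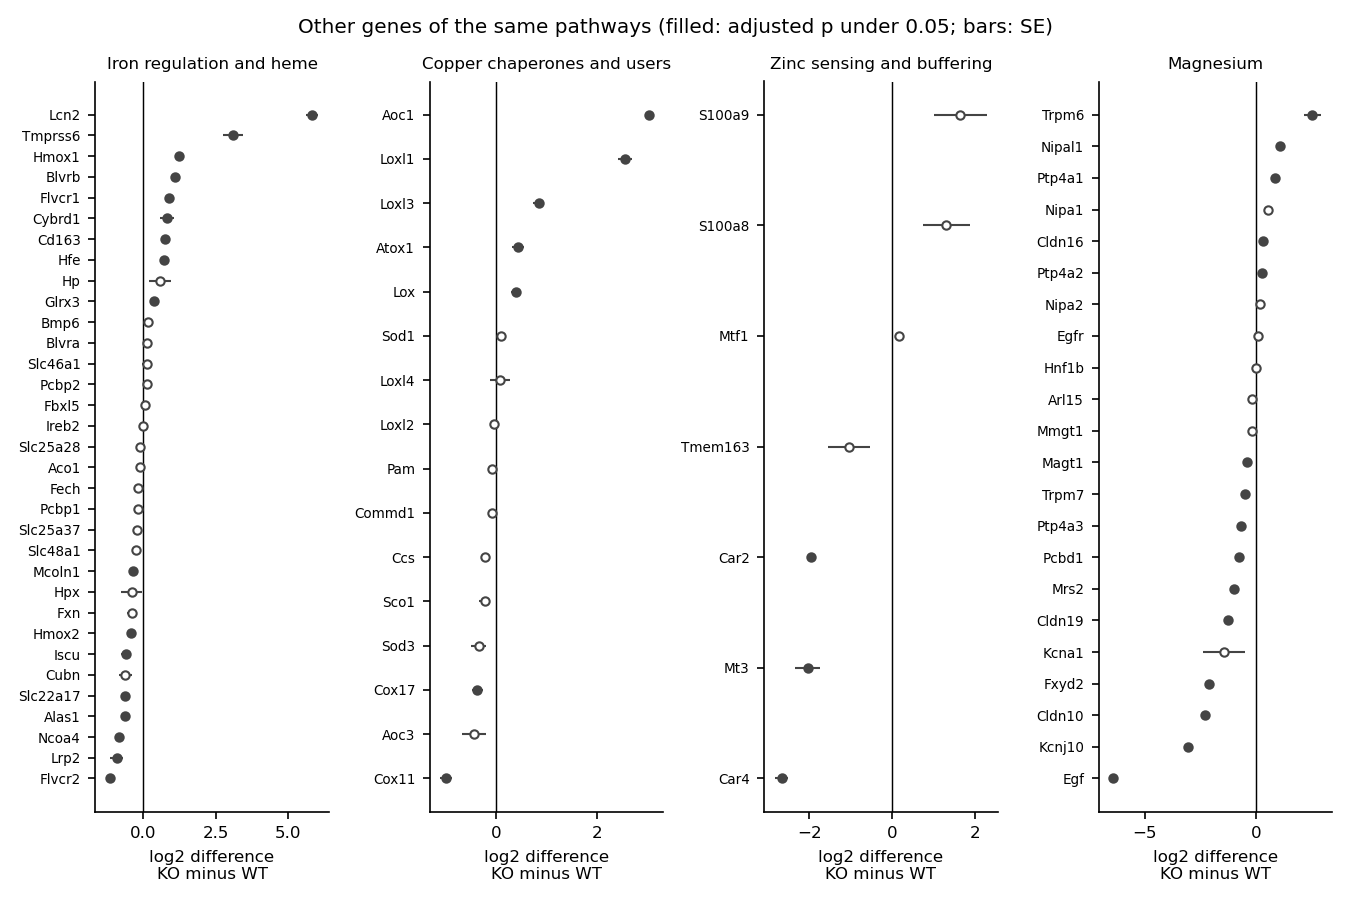
Log2 difference (KO-labelled minus WT-labelled) of the other genes of iron and heme, copper, zinc and magnesium handling, each list in its own panel with its own horizontal scale; bars are SE (n = 2 libraries each) and filled points had an adjusted p under 0.05. Lcn2, Aoc1 and Trpm6 lie farthest to the right among called genes of their lists, at 5.82, 3.02 and 2.51, and Egf farthest to the left, at -6.43.

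Levels were compared between genes as normalized counts per kilobase of exon. Fth1 led in both groups, at means of 41670 in KO-labelled and 28280 in WT-labelled libraries, followed by Ftl1, at 9079 and 5660, and by Mt1, at 4970 and 4524. Of the 51 genes Trf ranked 4 by its mean over KO-labelled libraries and 20 over WT-labelled libraries, Cp ranked 6 and 25, and Tfrc 12 and 4. Slc39a7 was the most abundant zinc importer in both groups, at 2389 in KO-labelled and 2007 in WT-labelled libraries. Slc39a8 came next in the WT-labelled libraries, at 1703, while in the KO-labelled libraries, at 811, it stood below Slc39a1, at 2030. Slc30a5 was the most abundant exporter, at 1436 in KO-labelled and 1584 in WT-labelled libraries, and Slc31a1 the most abundant copper gene, at 1560 and 1651.

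**Figure D5:**
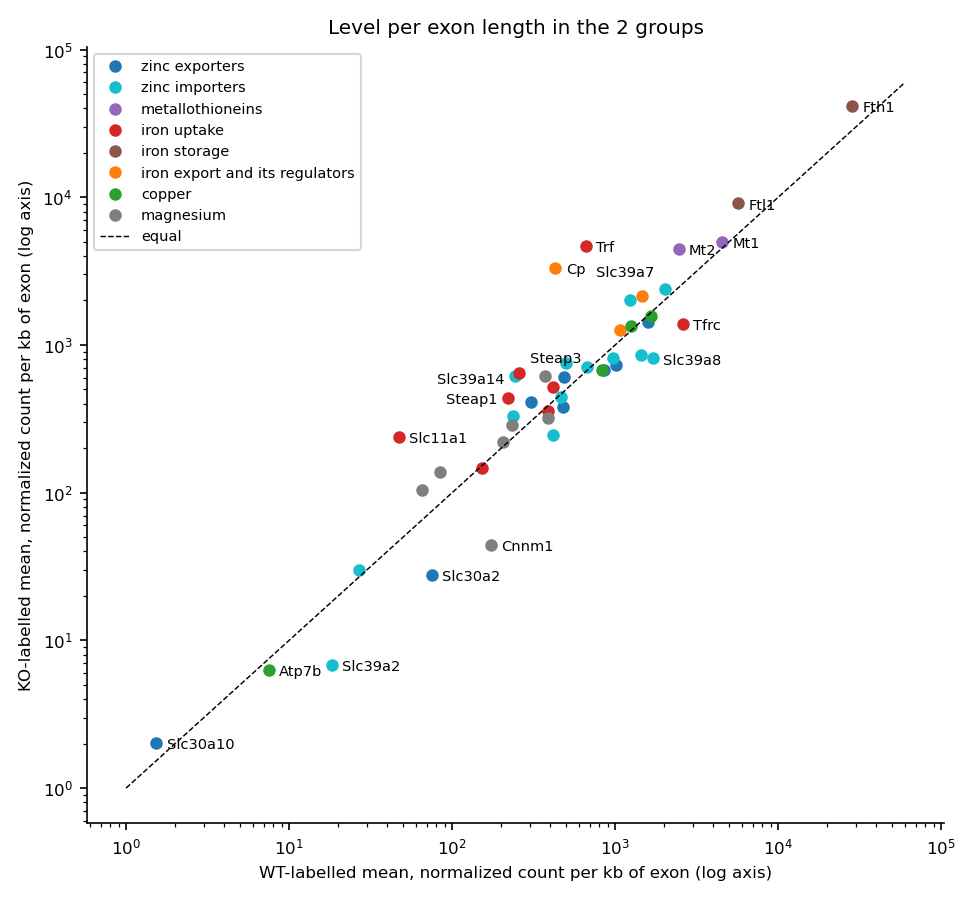
Mean normalized count per kilobase of exon in the KO-labelled (vertical, log axis) and WT-labelled libraries (horizontal, log axis) for the 47 metal genes tested, coloured by role, with a dashed line at equal levels. Cp, Trf and Slc11a1 lie above the line and Tfrc, Slc39a8 and Cnnm1 below it, while Fth1 is the highest in both groups.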

How the data were processed

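Total RNA of the kidney medulla was sequenced in 4 libraries, with groups and replicate numbers from the sample titles. In the deposited table each gene has a signal per library: the authors scaled read counts with a single factor for each library, as the values show. Per the submitters' processing notes, the tools were HISAT2 2.2.1, fastp 0.20.1, DESeq2 2.11.40.7 and featureCounts 2.0.1, and the builds GRCm38 and mm10. Not given in the sources used here: the annotation, the strand setting and how multi-mapped reads were treated. Within each column the values were whole multiples of 1 step (1.073, 0.9421, 0.9849 and 0.994 in KO 1, KO 2, WT 1 and WT 2), and 100% came out whole within 0.001 after division by it.

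Of 27179 Entrez IDs, 25275 were matched to a symbol in the RefSeq table of GRCm38.p6, and the 1904 others held 0.325% to 0.339% of the reads. log2(value + 1) was tested with limma 3.58.1 (R 4.3.3, variance trend, two-sided) in the 16253 genes whose 4 libraries averaged 10 or more. Benjamini-Hochberg adjustment ran over all of these, and an adjusted p under 0.05 was a call. Residual degrees of freedom were 2, or 6.96 once the spread was pooled over genes. edgeR 4.0.16 and DESeq2 1.42.0 were run on the recovered reads as alternatives, beside other pseudocounts, filters, scalings and variance models, a replicate block and each library left out in turn. The fit was tested on simulated counts. That each library is 1 animal is inferred from the numbering; otherwise p-values measure only the spread between these samples.

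The members, the lists and the naming rule were chosen with earlier results of these data known. Full statistics are given for called members with an absolute log2 difference of at least 1 and for 6 others picked by name. Of each list of other pathway genes, up to 4 called genes with the smallest adjusted p are named. Ncoa4, Slc22a17, Flvcr1, Flvcr2, Ireb2, Aco1, Atox1, Trpm6, Trpm7, Fxyd2, Cldn16, S100a9 and Mtf1 fall outside that rule. They were chosen after their values were seen, as were the Mt1 promoter window and the search for iron-responsive elements. Exon lengths are those of GENCODE M21 transcripts with a RefSeq mRNA match.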

Additional observations from a re-analysis of the deposited data

How the results depend on the processing

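Of the 32 called metal genes, 19 kept their call in all 15 alternatives (14 higher, 5 lower), 13 lost it in at least 1 and none changed direction. Of those called by limma, edgeR called 32 and DESeq2 31 in the same direction. With no variance trend 6 metal genes fell, 4 of them zinc genes, and with 1 library left out 5 to 9 fell, 3 to 7 of them zinc genes. Magnesium falls numbered 2 after quantile normalization, with a robust trend and by edgeR, and the rises 1 to 4 with 1 library left out. With no variance trend the copper list gave 3 rises and 1 fall, the iron list 5 falls, and the magnesium list 3 rises, as it also did with no filter and with the replicate block. With 1 library left out, the rises and falls of the copper list were 3 to 4 and 1 to 4, falls of the iron list 5 to 8, rises of the magnesium list 3 to 5, and rises of the zinc list 0 to 2. Same-numbered replicates did not deviate together (r = -0.0564), so the numbers were not taken as pairs; the replicate block gave 19 rises and 9 falls among the metal genes and 4 falls in the copper list. Genes with no call changed sign. With 1 library left out, log2 differences ran from -0.56 to 0.15 for Atp7b, -0.18 to 1.06 for Slc30a10, -0.02 to 0.31 for Mt1, -0.13 to 0.04 for Steap4, -0.03 to 0.21 for Slc31a2, -0.06 to 0.34 for Slc39a4 and -0.18 to 0.09 for Slc39a3. Slc39a4 stood at -0.03 after quantile normalization. The cause was not tested. Where 1 library stands for a group, its spread is taken from the other group. With 2 libraries a group, small differences cannot be resolved, and intervals from reads cover counting error only.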
